A study of Homo sapiens with 44 samples.

Results

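The comparison described here follows transcripts through a part of the second cell cycle of a synchronised human neuroblastoma line in which MYCN was left high. It sets 4 late libraries, collected 20 and 22 h after release from a thymidine block, against 4 early libraries, collected 16 and 18 h after release. These 8 libraries were taken from the 44 of the series by their labelled arm and time and not by any measured value. The cells were IMR5/75, an established neuroblastoma line, carrying a tetracycline-inducible short hairpin RNA (shRNA) against MYCN. All 8 cultures were without tetracycline (Tet minus), so both the late and the early cells carried the uninduced hairpin and had been held at the G1/S boundary by thymidine for 18 h. The late group held 2 libraries at 20 h and 2 at 22 h, and the early group 2 at 16 h and 2 at 18 h. The 2 libraries of a time are labelled as replicates and the study's design text calls them biological. The 4 libraries of replicate 1 carry one sequencing lane number in their titles and the 4 of replicate 2 another, so every late-against-early difference could be taken within a lane. Where values are set beside them, the 8 Tet plus libraries (hairpin induced by tetracycline) came from 20 and 22 h against 16 and 18 h of the other arm, and 4 Tet minus libraries from 6 h against 3 h of the first cycle after release. The line is a single cell line with 1 hairpin, the cells were not sorted by stage, and the libraries measure whole cultures. A larger share of cells at one stage and more of a transcript in each cell therefore cannot be told apart in any value below.

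As background, a dividing cell copies its DNA in S phase, prepares in G2 and separates the copies in mitosis. Genes for origin licensing and for histones are transcribed around the start of and during S phase, largely under E2F factors for licensing genes, whereas genes for mitosis are repressed early in the cycle by the DREAM complex and transcribed in G2 by MYBL2 and FOXM1 together with the MuvB core. Promoters of the mitotic genes often carry a cell cycle homology region (CHR), which MuvB binds, and CCAAT boxes, which NF-Y binds. MYCN is a transcription factor that pairs with MAX on E-box sequences, and its amplification marks a high-risk form of neuroblastoma.

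Promoters are shown for 5 members whose transcripts the results return to, to let the windows of mitotic genes and of an S phase gene be read side by side. Each is the RefSeq window (GRCh38.p14) from 250 bases before to 50 bases after the annotated start, 5′ to 3′ on the gene's strand, which is the plus strand for all 5. Capitals mark the CHR word TTTGAA, the CCAAT word, the E-box CACGTG and the E2F words TTTCCCGC, TTTGGCGC, TTTCGCGC and TTTGCCGC, each searched on both strands. The reverse of the CCAAT word (ATTGG) can share its first base with the last base of TTTGAA, which happens in none of the 5.
CENPA, chr2:26785806-26786105: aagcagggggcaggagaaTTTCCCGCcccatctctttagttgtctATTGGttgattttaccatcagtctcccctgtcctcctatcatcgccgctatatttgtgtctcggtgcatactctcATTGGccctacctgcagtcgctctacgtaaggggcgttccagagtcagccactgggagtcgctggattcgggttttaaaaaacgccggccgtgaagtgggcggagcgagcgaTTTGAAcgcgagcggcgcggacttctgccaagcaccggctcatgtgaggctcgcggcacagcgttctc
CCNF, chr16:2429197-2429496: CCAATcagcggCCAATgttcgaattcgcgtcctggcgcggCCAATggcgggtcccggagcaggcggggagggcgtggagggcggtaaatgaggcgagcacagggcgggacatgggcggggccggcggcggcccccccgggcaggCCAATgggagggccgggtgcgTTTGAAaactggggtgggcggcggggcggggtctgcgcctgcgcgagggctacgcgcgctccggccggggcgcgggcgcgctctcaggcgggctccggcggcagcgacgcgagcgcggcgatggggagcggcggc
KIFC1, chr6:33391573-33391872: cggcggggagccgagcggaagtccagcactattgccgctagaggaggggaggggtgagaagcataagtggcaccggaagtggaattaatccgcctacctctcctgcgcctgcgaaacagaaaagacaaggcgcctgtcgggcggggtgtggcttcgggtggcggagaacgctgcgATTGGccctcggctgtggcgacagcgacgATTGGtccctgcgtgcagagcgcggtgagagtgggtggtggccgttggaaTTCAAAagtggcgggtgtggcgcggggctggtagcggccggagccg
CCNB1, chr5:69166900-69167199: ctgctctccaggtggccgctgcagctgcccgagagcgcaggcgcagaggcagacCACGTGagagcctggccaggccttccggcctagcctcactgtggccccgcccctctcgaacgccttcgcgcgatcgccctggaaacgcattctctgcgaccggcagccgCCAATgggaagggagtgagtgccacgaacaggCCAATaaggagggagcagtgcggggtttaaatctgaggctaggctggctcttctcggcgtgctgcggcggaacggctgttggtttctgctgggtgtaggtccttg
CDC6, chr17:40287629-40287928: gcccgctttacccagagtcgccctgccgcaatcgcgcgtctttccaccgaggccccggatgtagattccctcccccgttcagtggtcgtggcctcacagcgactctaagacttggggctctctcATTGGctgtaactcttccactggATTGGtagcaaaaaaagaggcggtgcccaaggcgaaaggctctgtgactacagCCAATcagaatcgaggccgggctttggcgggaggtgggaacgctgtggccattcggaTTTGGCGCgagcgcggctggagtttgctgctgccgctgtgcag
The first 3, all mitotic genes, hold the CHR word and at least 2 CCAAT words, CCNB1 holds 2 CCAAT words and an E-box but no CHR word in this window, and CDC6, a licensing gene, holds an E2F word, 3 CCAAT words and no CHR word. CENPA holds an E2F word too, so neither the E2F words nor the CCAAT word separates the 5 windows by role.

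A promoter window was found for 9303 of the 13443 tested genes, and 9.38% of these held the CHR word, 36.7% the CCAAT word, 3.92% both, 5.2% an E2F word and 10.4% the E-box. Among mitotic kinesins and spindle proteins 18 of 28 windows held the CHR word and 16 held both it and the CCAAT word. Among mitotic entry kinases and cyclins 10 of 18 held the CHR word, among cytokinesis genes 8 of 12, and among kinetochore and checkpoint genes 14 of 31. Among origin licensing and E2F genes 2 of 27 windows held the CHR word and 15 held an E2F word. These are matches of letters and were not tested for binding.

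The labels give hours after release and name no stage. On the scale of all 22 Tet minus libraries, CCNB1 was at 568 and 694 CPM at 8 h, at 151 and 178 CPM at 16 h and at 297 and 333 CPM at 22 h. HIST1H2BO, a replication-dependent histone, was at 115 to 123 CPM at 10 h (CPM, counts of a gene per mega of library size, TMM-scaled), at 414 and 452 CPM at 16 h and at 237 and 253 CPM at 22 h. CCNB1 thus stood lower at 22 h than at 8 h, and HIST1H2BO lower at 22 h than at 16 h. The 8 h and 10 h libraries carry other lane numbers than those of 16 h and 22 h, so time and lane cannot be told apart between them.

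**Figure D1:**
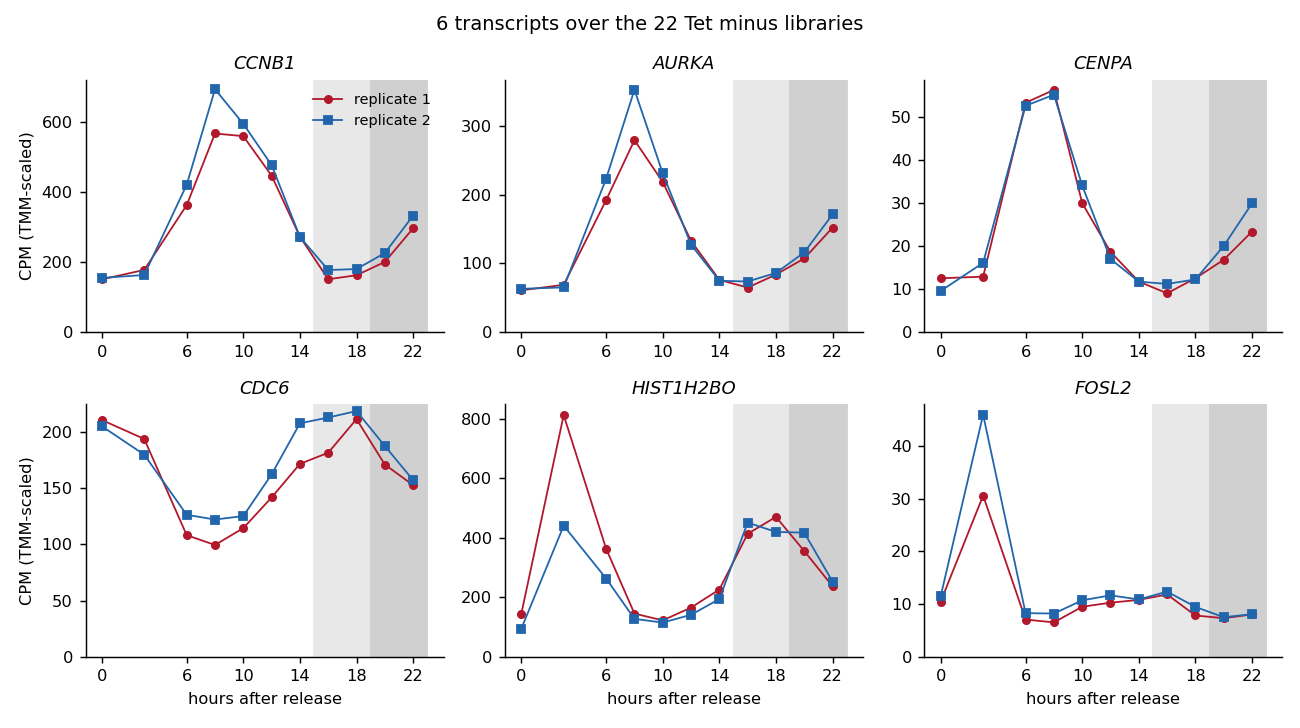
CPM of 6 transcripts (y axis, TMM scale of all 22 Tet minus libraries) against hours after release (x axis), 1 line per replicate, with the early window (16 and 18 h) in light grey and the late window (20 and 22 h) in darker grey. CCNB1, AURKA and CENPA peak at 8 h, are low at 16 h and climb again in the late window, while CDC6 and HIST1H2BO are lower at 22 h than at 16 h.

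The late libraries held 20.9 to 23.5 M (mega) counts assigned to genes, against 14.0 to 23.8 M in the early ones. ERCC spike-in transcripts took 2.07% to 2.58% of counts in the late and 1.13% to 3.43% in the early libraries, and small nucleolar and Cajal body RNAs 0.487% to 0.55% of gene counts in the late and 0.289% to 0.713% in the early ones. Of the markers fixed for other cell types, none of 5 blood, 1 of 5 epithelial (KRT8, at most 0.945 CPM) and 2 of 5 Schwann markers passed the filter on low counts, and CD3E, HBB, KRT19 and SOX10 had 0 counts in all 8. The mesenchymal list was measured in 7 of 9 members, with summed levels of 935 to 1442 CPM in the late and 827 to 1565 CPM in the early libraries. HAND2, a transcription factor of the noradrenergic identity of this tumour, was at 373 and 322 CPM at 20 h and 380.1 and 319.6 CPM at 22 h, against 449 and 301 CPM at 16 h and 378 and 299 CPM at 18 h. TH was under the filter, at 9 counts over the 8 libraries.

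With 1 mean for the late and 1 for the early window and the replicate number as covariate, edgeR's quasi-likelihood test, its p-values adjusted by Benjamini-Hochberg at a threshold of 0.05 as throughout, called 0 genes higher and 0 lower among 13443 tested. These are 0% and 0% of the genes. The smallest adjusted p was 0.209, and 418 genes (3.11%) were higher and 645 (4.8%) lower at an unadjusted p under 0.05. DESeq2, with the same design, called 51 higher (0.441%) and 33 lower (0.285%) of 11570 genes with an adjusted p. This fit counts the difference between the 2 times of a window as spread. A fit with a mean for each of the 4 times and the same covariate, called the per-time fit below, compares the same windows. This fit sets them against the spread left between replicates once their constant difference is removed. It called 107 of 13742 genes higher (0.779%) and 54 lower (0.393%), and "rose" and "fell" below refer to these calls. All 4 late libraries lay above all 4 early ones for 248 genes (1.84%) and below them for 167 (1.24%).

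The per-time counts depended on single libraries. They were 14 higher and 1 lower without 16 h replicate 1 and 362 higher and 332 lower without 22 h replicate 1. Without 22 h replicate 2 they were 290 and 431, without 18 h replicate 1 they were 162 and 113, and without 18 h replicate 2 they were 120 and 95. Without 16 h replicate 2 they were 41 and 31, without 20 h replicate 1 they were 43 and 3, and without 20 h replicate 2 they were 41 and 19. Each of the 161 genes called kept its direction in these 8 fits, apart from 1 that was not tested without 18 h replicate 1. Of the 161 genes, 14 were called in all 8 fits (AURKA, C12orf34, CCNB1, CDCA2, CDCA8, CENPA, CKS2, FAM72D, FAM83D, H1F0, KIF23, NDC80, PSRC1 and RACGAP1) and 26 in 7 of them, which all lost their call without 16 h replicate 1. A further 9 were called in 6 fits, 14 in 5, 62 in 4, 34 in 3 and 2 in 2. With no replicate block the per-time fit called 11 higher and 0 lower.

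Genes of cell division made up most of what rose. Of the 107 genes, 61 belonged to 8 lists of mitotic and centrosome genes, 8 to other lists and 38 to none of the lists. Those 8 lists held 172 tested genes, of which 61 rose and 0 fell, with a median log2 fold change of 0.25 against 0.00 for all tested genes. Here and below, unless said, log2 fold changes and their SEs are late over early from the 2-window fit. This holds also where a per-time adjusted p, which has its own SE, stands beside them. Of the 53 genes that fell and were also tested in the 2-window fit, 0 belonged to these 8 lists and 14 to others. Of the 85 genes that rose and have a promoter window, 47 held the CHR word (55.3%) and 37 both it and the CCAAT word (43.5%). Of the 28 that fell and have one, 1 held the CHR word (3.57%) and 6 an E2F word (21.4%). The genes behind these shares were chosen by the test itself.

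**Figure D2:**
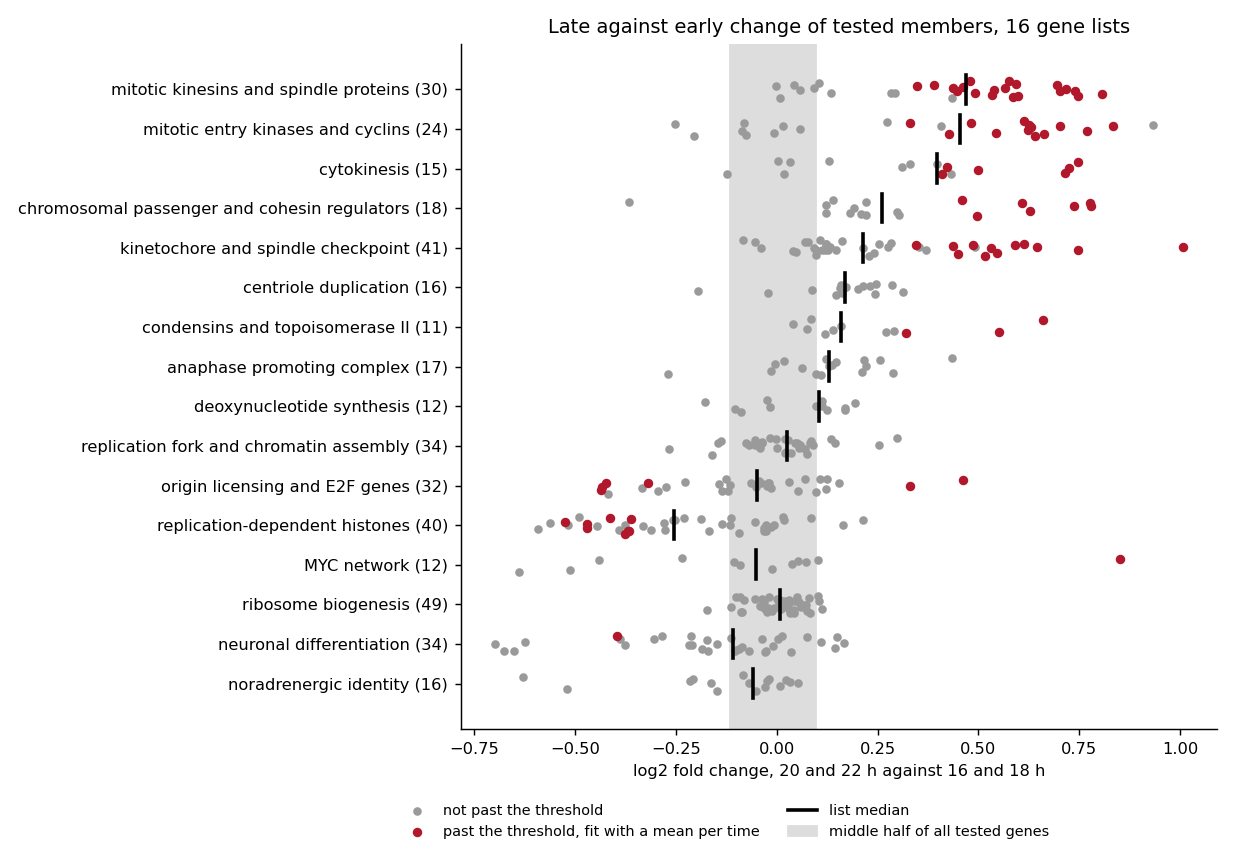
Log2 fold change of the late (20 and 22 h) against the early (16 and 18 h) Tet minus libraries (x axis) for the tested members of 16 gene lists (y axis, number of members in brackets); each point is a gene, red where it passed the threshold in the per-time fit, black bars are list medians and the grey band spans the quartiles of all tested genes. The medians of kinesins and spindle proteins (0.47) and mitotic entry genes (0.45) lie far right of the band, and that of the histones (-0.26) left of it.

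Kinases and cyclins of mitotic entry had a median log2 fold change of 0.45, and 13 of 24 rose and 0 fell. AURKA, the kinase that matures centrosomes and activates PLK1, had 104 and 112 CPM at 20 h and 148 and 168 CPM at 22 h, against 63.2 and 70.6 CPM at 16 h and 81.1 and 83.6 CPM at 18 h. Every late library was above every early one, and AURKA rose by 0.83 on the log2 scale (SE 0.156, adjusted p = 0.245, and 0.000697 in the per-time fit). TPX2, which activates AURKA on the spindle, had 161 and 174 CPM at 20 h and 221 and 229.7 CPM at 22 h, against 121 and 119 CPM at 16 h and 140.1 and 134 CPM at 18 h. TPX2 rose by 0.61 on the log2 scale (SE 0.127, per-time adjusted p = 0.00136), and each late library was above each early one. CCNB1, the cyclin that drives CDK1 into mitosis, had 195 and 219 CPM at 20 h and 288 and 327 CPM at 22 h, against 147 and 170.2 CPM at 16 h and 158 and 175 CPM at 18 h. CCNB1 rose by 0.66 on the log2 scale (SE 0.144, per-time adjusted p = 0.000787), and each late library was above each early one. Its step between 16 and 18 h was 0.07 on the log2 scale, against 0.31 and 0.58 in the next 2 steps. CCNF, a cyclin-like F-box protein that limits centrosome duplication, had 176 and 181 CPM at 20 h and 229 and 201 CPM at 22 h, against 130.1 and 132 CPM at 16 h and 119 and 124 CPM at 18 h. CCNF rose by 0.64 on the log2 scale (SE 0.0998, per-time adjusted p = 0.00136), and each late library was above each early one. FAM83D, which holds a kinase at the spindle, had 86.0 and 89.7 CPM at 20 h and 115 and 107 CPM at 22 h, against 56.9 and 62.0 CPM at 16 h and 54.0 and 60.3 CPM at 18 h. FAM83D rose by 0.77 on the log2 scale (SE 0.11, per-time adjusted p = 0.00078), and each late library was above each early one. In both replicates these 2 genes were lower at 18 h than at 16 h and above either level at 20 h. The dip turned with an offset per library for GC content, described below: the 18 against 16 h log2 fold change was 0.17 with it and -0.11 without it for CCNF, and 0.01 and -0.06 for FAM83D. The other 8 that rose were BORA, BUB3, CCNA2, CDC25C, CDK1, CKS2, NEK2 and PLK1, and the calls held in 3 of the 8 fits without a library for BUB3 and in 4 for CCNA2 and NEK2. CDK1, the kinase of mitotic entry, was named after its values were seen and had 133 and 144 CPM at 20 h and 169.5 and 209.5 CPM at 22 h, against 72.9 and 86.6 CPM at 16 h and 134 and 131 CPM at 18 h. Its late and early libraries overlapped, and it rose by 0.62 on the log2 scale (SE 0.205, per-time adjusted p = 0.00151). The inhibitor of CDK1, WEE1, had a log2 fold change of -0.01, and CDC25A, a phosphatase active from late G1, one of -0.25 with all late libraries (87.4 to 105 CPM) below all early ones (111 to 118 CPM), although it did not pass (per-time adjusted p = 0.0876).

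**Figure D3:**
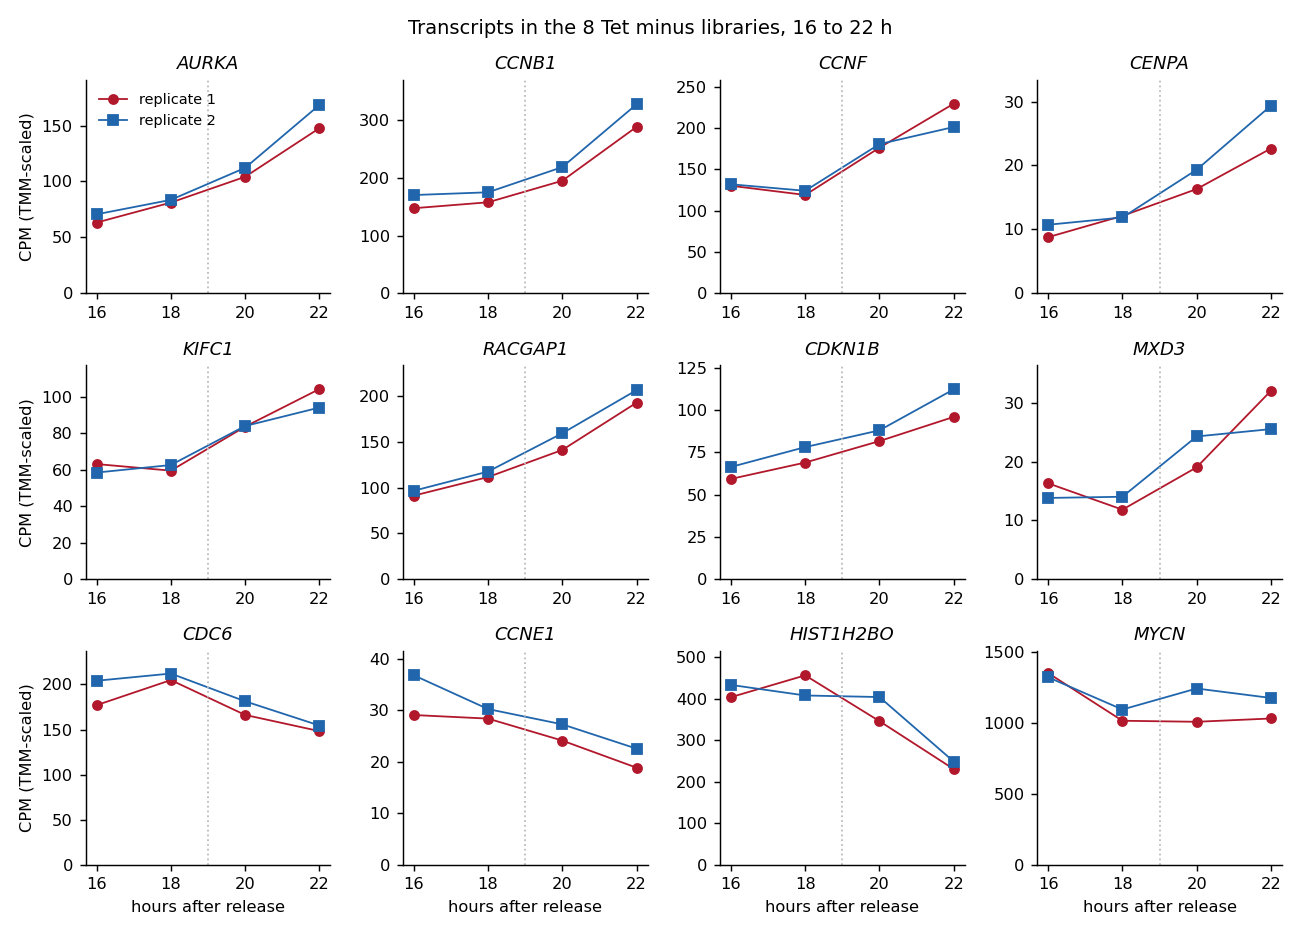
CPM of 12 transcripts (y axes from 0, TMM scale of the 8 libraries) against hours after release (x axis) in the 8 Tet minus libraries, 1 line per replicate; the dotted line separates the early from the late window. The mitotic genes AURKA, CCNB1, CCNF, CENPA, KIFC1 and RACGAP1, and CDKN1B and MXD3, are higher in every late library, while CCNE1 is lower in every late library and MYCN overlaps.

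Mitotic kinesins and spindle proteins had the highest median of the lists with 5 or more tested members, 0.47, with 20 of 30 risen, 0 fallen and 11 whose late libraries all lay above the early ones. KIF2C, a kinesin that takes microtubules apart at the kinetochore, had 238 and 263 CPM at 20 h and 310.3 and 310.4 CPM at 22 h, against 170.1 and 189.9 CPM at 16 h and 177 and 208 CPM at 18 h. KIF2C rose by 0.59 on the log2 scale (SE 0.103, per-time adjusted p = 0.00147), and each late library was above each early one. KIFC1, a minus-end motor that bundles spindle poles, had 83.7 and 84.1 CPM at 20 h and 104 and 94.2 CPM at 22 h, against 63.2 and 58.5 CPM at 16 h and 59.6 and 62.7 CPM at 18 h. KIFC1 rose by 0.59 on the log2 scale (SE 0.0948, per-time adjusted p = 0.00228), and each late library was above each early one. Both genes stood higher at 20 h than at 16 or 18 h in both replicates. For KIFC1 the 18 against 16 h log2 fold change was 0.30 with the GC offset and 0.01 without it. PRC1, which cross-links midzone microtubules, had 247 and 269.5 CPM at 20 h and 335 and 337 CPM at 22 h, against 191 and 196 CPM at 16 h and 201 and 216 CPM at 18 h. PRC1 rose by 0.57 on the log2 scale (SE 0.112, per-time adjusted p = 0.00147), and each late library was above each early one. PSRC1, a microtubule-binding protein of the spindle, had 38.1 and 40.1 CPM at 20 h and 52.8 and 56.8 CPM at 22 h, against 28.3 and 27.7 CPM at 16 h and 24.3 and 27.2 CPM at 18 h. PSRC1 rose by 0.81 on the log2 scale (SE 0.139, per-time adjusted p = 0.000787), and each late library was above each early one. Over the 30 tested members the log2 fold change ran up to that of PSRC1, and down to -0.00 for KIF2A, a kinesin related to KIF2C. DLGAP5, a spindle assembly factor, had 103 and 121 CPM at 20 h and 148 and 189.7 CPM at 22 h, against 82.0 and 107 CPM at 16 h and 103 and 105 CPM at 18 h. Its windows overlapped and it rose by 0.49 on the log2 scale (SE 0.157, per-time adjusted p = 0.0135), a call that held in 4 of the 8 fits without a library.

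Kinetochore and spindle checkpoint genes moved less as a list, with a median of 0.21 (0.01 under ERCC scaling, which set the median of all genes at -0.20) and 12 of 41 risen and 0 fallen. CENPA, the histone H3 variant that marks centromeres, had 16.3 and 19.3 CPM at 20 h and 22.6 and 29.3 CPM at 22 h, against 8.78 and 10.7 CPM at 16 h and 12.1 and 11.9 CPM at 18 h. It was about 2-fold higher, by 1.01 on the log2 scale (SE 0.172, adjusted p = 0.226, per-time 0.00105). HJURP, the chaperone that loads CENPA, had 65.1 and 66.2 CPM at 20 h and 87.8 and 79.1 CPM at 22 h, against 45.8 and 44.6 CPM at 16 h and 51.4 and 52.9 CPM at 18 h. HJURP rose by 0.61 on the log2 scale (SE 0.118, per-time adjusted p = 0.00184), and each late library was above each early one. Both libraries of each time were close to each other, and the levels of the 4 times did not overlap. BUB1B and BUB1, checkpoint kinases that delay anaphase, had log2 fold changes of 0.52 (SE 0.126, per-time adjusted p = 0.00268) and 0.49 (SE 0.133, per-time adjusted p = 0.0109). BUB1 had 122 and 128 CPM at 20 h and 165 and 178 CPM at 22 h, against 101 and 101 CPM at 16 h and 119.9 and 102 CPM at 18 h. The call for BUB1 ended in 4 of the 8 fits that left out a library (highest adjusted p 0.190, without 16 h replicate 1).

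In the list of the chromosomal passenger complex and of cohesin regulators, 7 of 18 rose, 0 fell, the median was 0.26 (0.05 under ERCC scaling), and 9 had separate windows. CDCA8, the borealin subunit of the passenger complex, had 78.8 and 79.6 CPM at 20 h and 109 and 102 CPM at 22 h, against 52.8 and 49.5 CPM at 16 h and 59.4 and 60.0 CPM at 18 h. CDCA8 rose by 0.74 on the log2 scale (SE 0.129, per-time adjusted p = 0.00078), and each late library was above each early one. AURKB, its kinase, had 81.1 and 90.5 CPM at 20 h and 109 and 102 CPM at 22 h, against 64.3 and 68.7 CPM at 16 h and 51.2 and 67.9 CPM at 18 h. AURKB rose by 0.61 on the log2 scale (SE 0.12, per-time adjusted p = 0.00632), and each late library was above each early one. INCENP, the scaffold of the complex, rose on the log2 scale by 0.46 (SE 0.0906, per-time adjusted p = 0.0163). INCENP, too, had no overlap between the windows, and its call held in 4 of the 8 fits without a library. CDCA3, which directs WEE1 to degradation, had 19.0 and 22.1 CPM at 20 h and 28.5 and 30.4 CPM at 22 h, against 13.8 and 16.0 CPM at 16 h and 13.1 and 15.4 CPM at 18 h. CDCA3 rose by 0.78 on the log2 scale (SE 0.148, per-time adjusted p = 0.00159), and each late library was above each early one. PTTG1, the securin that holds separase inactive, ran the other way with 50.4 and 61.9 CPM at 20 h and 69.5 and 88.5 CPM at 22 h, against 92.8 and 106 CPM at 16 h and 74.9 and 73.1 CPM at 18 h. Its log2 fold change was -0.37, which did not pass (per-time adjusted p = 0.0522), and it was lowest at 20 h in both replicates.

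Of the cytokinesis genes 6 of 15 rose and 0 fell (median 0.40), and the 6 that rose were also the 6 whose windows did not overlap. RACGAP1, part of the centralspindlin complex that positions the furrow, had 141 and 159 CPM at 20 h and 193 and 207 CPM at 22 h, against 91.2 and 96.6 CPM at 16 h and 112 and 118 CPM at 18 h. RACGAP1 rose by 0.75 on the log2 scale (SE 0.131, per-time adjusted p = 0.000697), and each late library was above each early one. ANLN, the scaffold of the contractile ring, had 136 and 146 CPM at 20 h and 181 and 194 CPM at 22 h, against 96.9 and 105 CPM at 16 h and 134 and 128 CPM at 18 h. ANLN rose by 0.50 on the log2 scale (SE 0.142, per-time adjusted p = 0.00419), and each late library was above each early one. ARHGAP11A, a GTPase-activating protein, and DEPDC1 rose on the log2 scale by 0.71 (SE 0.169) and 0.72 (SE 0.2), while MYH9, a non-muscle myosin heavy chain that cells use through the whole cycle, had a log2 fold change of -0.12. Among condensins and topoisomerase II, 3 of 11 rose and 0 fell (median 0.16, and -0.05 under ERCC scaling). TOP2A, which untangles sister chromatids, had 526 and 586 CPM at 20 h and 752 and 933 CPM at 22 h, against 366 and 412 CPM at 16 h and 501 and 485 CPM at 18 h. TOP2A rose by 0.66 on the log2 scale (SE 0.17, per-time adjusted p = 0.00147), and each late library was above each early one. NCAPG and NCAPH, condensin I subunits, rose on the log2 scale by 0.55 (SE 0.165) and 0.32 (SE 0.0987), and the call for NCAPH held in 3 of the 8 fits without a library. MKI67, the proliferation marker, had a log2 fold change of 0.29 and its windows overlapped.

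Lists of the anaphase promoting complex (17 tested, median 0.13) and of centriole duplication (16 tested, median 0.17) had 0 members that rose or fell, and under ERCC scaling their medians were -0.08 and -0.04. UBE2C, the ubiquitin-conjugating enzyme of that complex, had 56.2 and 65.4 CPM at 20 h and 75.9 and 89.2 CPM at 22 h, against 60.4 and 47.7 CPM at 16 h and 56.4 and 48.3 CPM at 18 h, a log2 fold change of 0.43 (SE 0.147) that did not pass (per-time adjusted p = 0.0833). SASS6, which forms the centriole cartwheel, had a log2 fold change of 0.29, and the late and early libraries overlapped. The transcriptional regulators of the mitotic programme themselves (16 tested, median 0.00, 0 risen or fallen) included FOXM1 and MYBL2, with log2 fold changes of -0.19 and -0.19 and overlapping windows.

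Among cyclin-dependent kinase inhibitors and G1 cyclins, 2 of 17 rose and 0 fell (median 0.03). CDKN1B, the inhibitor p27, had 81.7 and 88.0 CPM at 20 h and 96.0 and 112 CPM at 22 h, against 59.3 and 66.4 CPM at 16 h and 69.0 and 78.1 CPM at 18 h. CDKN1B rose by 0.47 on the log2 scale (SE 0.11, per-time adjusted p = 0.00581), and each late library was above each early one. CDKN2C, the CDK4 and CDK6 inhibitor p18, had 63.3 and 65.0 CPM at 20 h and 68.9 and 72.6 CPM at 22 h, against 51.6 and 49.3 CPM at 16 h and 43.7 and 52.6 CPM at 18 h. CDKN2C rose by 0.45 on the log2 scale (SE 0.0907, per-time adjusted p = 0.0173), and each late library was above each early one. Both calls held in 4 of the 8 fits without a library. Another inhibitor, CDKN2D, had separate windows at a low level, 5.55 and 5.78 CPM at 20 h and 6.17 and 7.36 CPM at 22 h, against 4.12 and 3.96 CPM at 16 h and 4.52 and 4.48 CPM at 18 h, but did not pass (per-time adjusted p = 0.0666).

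Apart from the histones described below, lists of S phase genes had medians from -0.05 to 0.11. Of the 32 origin licensing and E2F genes 10 had a positive log2 fold change, against 6821 of all 13443 tested genes. Origin licensing and E2F genes had a median of -0.05, with 2 of 32 risen (DBF4 and GINS1) and 4 fallen (CCNE1, CDT1, E2F1 and E2F2). The calls of DBF4, GINS1, CDT1 and E2F2 held in 4 of the 8 fits without a library and that of E2F1 in 3, and E2F1 did not pass with the GC offset (per-time adjusted p = 0.057). CCNE1, the cyclin that starts S phase with CDK2, had 24.1 and 27.3 CPM at 20 h and 18.9 and 22.6 CPM at 22 h, against 29.1 and 36.8 CPM at 16 h and 28.4 and 30.2 CPM at 18 h. It fell by 0.42 on the log2 scale (SE 0.117, per-time adjusted p = 0.0358), with all late libraries below all early ones, and its call held in 3 of the 8 fits without a library. E2F2, an activating E2F factor, had 119 and 99.9 CPM at 20 h and 101 and 82.8 CPM at 22 h, against 156 and 129 CPM at 16 h and 139.7 and 118 CPM at 18 h. E2F2 fell by 0.43 on the log2 scale (SE 0.0957, per-time adjusted p = 0.00636), and its windows overlapped. Replicate 1 was higher than replicate 2 at each time, and within each replicate both late values were below both early ones. CDC6, which loads the MCM helicase, had 166 and 181 CPM at 20 h and 148 and 154 CPM at 22 h, against 177 and 204 CPM at 16 h and 205 and 212 CPM at 18 h. Its log2 fold change of -0.30 did not pass (per-time adjusted p = 0.053). The helicase subunit MCM6 had a log2 fold change of -0.06. Replication fork and chromatin assembly genes (34 tested, median 0.03) and deoxynucleotide synthesis genes (12 tested, median 0.11, and -0.11 under ERCC scaling) had 0 that rose or fell. DTL and UNG, which are in none of the lists and were named after their values were seen, fell with separate windows. DTL, an adaptor that targets CDT1 for destruction in S phase, had 169 and 168 CPM at 20 h and 137 and 159 CPM at 22 h, against 212 and 224 CPM at 16 h and 222 and 219 CPM at 18 h (per-time adjusted p = 0.00651). UNG, the uracil-DNA glycosylase of replication forks, had 136 and 142 CPM at 20 h and 116 and 131 CPM at 22 h, against 167 and 182 CPM at 16 h and 155 and 176 CPM at 18 h (per-time adjusted p = 0.0163). Both calls held in 4 of the 8 fits without a library.

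Replication-dependent histones, whose transcripts lack a poly(A) tail and are kept in libraries made by removing ribosomal RNA, had a median of -0.26. Of the 73 listed, 40 passed the filter, and 8 fell and 0 rose. Their share of gene counts was 2.25% and 2.44% at 20 h and 1.70% and 1.61% at 22 h, against 2.21% and 2.37% at 16 h and 2.32% and 2.32% at 18 h. The 22 h libraries were thus the low ones, and the 20 h libraries lay with the early ones. HIST1H2BO had 346 and 404 CPM at 20 h and 230.3 and 248 CPM at 22 h, against 403 and 433 CPM at 16 h and 456 and 407 CPM at 18 h. HIST1H2BO fell by 0.47 on the log2 scale (SE 0.162, per-time adjusted p = 0.00732), and its windows overlapped. HIST2H2BE had 1236 and 1499.9 CPM at 20 h and 809.5 and 939 CPM at 22 h, against 1770.5 and 1519 CPM at 16 h and 1741 and 1425 CPM at 18 h. HIST2H2BE fell by 0.53 on the log2 scale (SE 0.175, per-time adjusted p = 0.0205), and its windows overlapped. HIST1H4K fell by 0.47 on the log2 scale (SE 0.143, per-time adjusted p = 0.0104), a call that held in 4 of the 8 fits without a library. None of the 40 had separate windows. Histone genes share sequence, so their single-gene values are uncertain. Several listed genes under the filter, among them HIST1H1B, HIST1H1D, HIST1H3F and HIST1H4A, had 0 counts over the 8 libraries. The reason was not tested. The list's median step was 0.01 at 18 against 16 h, -0.03 at 20 against 18 h and -0.52 at 22 against 20 h. With the GC offset the first of these was 0.26, and the 20 against 18 h change became -0.51 for HIST1H4K (-0.28 without it) and -0.38 for HIST1H2BO (-0.21 without it). SLBP, which binds the stem-loop of these transcripts, had a log2 fold change of -0.16 and its windows overlapped. H1F0, the linker histone H1.0, whose transcript is polyadenylated and not tied to S phase, was named after its values were seen and rose, with 225 and 212 CPM at 20 h and 261 and 234 CPM at 22 h, against 163 and 107 CPM at 16 h and 183 and 149.5 CPM at 18 h (per-time adjusted p = 0.00438).

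MYCN itself had 1009 and 1244 CPM at 20 h and 1033 and 1178 CPM at 22 h, against 1353 and 1324 CPM at 16 h and 1017 and 1096 CPM at 18 h. The late and early libraries overlapped, and the log2 fold change was -0.11 (SE 0.106, adjusted p = 0.837, per-time 0.544). It was lower at 18 h than at 16 h in both replicates (log2 fold change -0.34, SE 0.0982, adjusted p = 0.0456), a step that was -0.08 with the GC offset. Within its network 1 of 12 tested members rose and 0 fell. That member was MXD3, a MAX partner that represses E-box genes and is known to be expressed in S phase and G2, with 19.1 and 24.3 CPM at 20 h and 32.1 and 25.6 CPM at 22 h, against 16.3 and 13.8 CPM at 16 h and 11.8 and 14.0 CPM at 18 h. MXD3 rose by 0.85 on the log2 scale (SE 0.163, per-time adjusted p = 0.00766), and each late library was above each early one. The call for MXD3 held in 5 of the 8 fits without a library. MNT, another MAX-binding repressor, had a log2 fold change of -0.51 and overlapping windows, and MYC had 39 counts over the 8 libraries. Ribosome biogenesis genes, a class known to respond to MYC proteins, had a median of 0.01 with 0 of 49 risen or fallen.

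FAM72D had the largest rise of a gene with a mean of at least 3 on the log2 CPM scale, by 1.11 on the log2 scale (SE 0.16; adjusted p = 0.209, per-time 0.000697). It had 33.6 and 37.4 CPM at 20 h and 50.0 and 50.2 CPM at 22 h, against 17.3 and 18.6 CPM at 16 h and 18.7 and 25.0 CPM at 18 h. FAM72A and FAM72B, near-identical copies whose reads cannot be assigned with certainty, also rose (per-time adjusted p = 0.00376 and 0.00636). HMGB2, a chromatin protein of the high mobility group, had 306 and 333 CPM at 20 h and 390.3 and 466 CPM at 22 h, against 267 and 229 CPM at 16 h and 279 and 273 CPM at 18 h. GAS2L3, a microtubule and actin cross-linker of the midbody, had 18.9 and 18.6 CPM at 20 h and 24.0 and 29.2 CPM at 22 h, against 11.0 and 13.4 CPM at 16 h and 18.1 and 15.1 CPM at 18 h. Both rose with separate windows (per-time adjusted p = 0.0139 and 0.0166) and, like the others of this paragraph, are in none of the lists. The calls of HMGB2 and GAS2L3 held in 4 of the 8 fits without a library.

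Genes that fell outside the S phase lists were led, at that level, by VGF, a secreted neuropeptide precursor, with 15.5 and 12.0 CPM at 20 h and 13.1 and 6.56 CPM at 22 h, against 44.0 and 29.1 CPM at 16 h and 17.2 and 12.9 CPM at 18 h. VGF fell by 1.14 on the log2 scale (SE 0.322, per-time adjusted p = 0.00147), and its 3 steps were -1.26, -0.13 and -0.53 without and -0.63, -0.44 and -0.30 with the GC offset. C12orf34 had 10.1 and 6.19 CPM at 20 h and 8.55 and 4.21 CPM at 22 h, against 28.5 and 14.4 CPM at 16 h and 12.6 and 7.46 CPM at 18 h. C12orf34 fell by 1.11 on the log2 scale (SE 0.273, per-time adjusted p = 0.00127), and its windows overlapped. KDM6B, a histone H3 demethylase, had 15.7 and 10.9 CPM at 20 h and 13.4 and 8.07 CPM at 22 h, against 36.6 and 15.8 CPM at 16 h and 27.5 and 11.6 CPM at 18 h, with replicate 1 above replicate 2 at each time (per-time adjusted p = 0.0101). ETV4, an ETS factor downstream of receptor signalling, had 10.3 and 20.5 CPM at 20 h and 6.66 and 12.9 CPM at 22 h, against 17.9 and 32.4 CPM at 16 h and 10.9 and 23.8 CPM at 18 h, with the replicates in the other order (per-time adjusted p = 0.00251). FGFRL1, a decoy FGF receptor, was 1 of the 10 fallen genes whose windows did not overlap, with 30.8 and 31.2 CPM at 20 h and 23.5 and 27.1 CPM at 22 h, against 53.4 and 49.0 CPM at 16 h and 34.5 and 35.7 CPM at 18 h (per-time adjusted p = 0.00505). MIR3648 and MIR3687, whose sequences lie in ribosomal RNA precursor loci, were called lower, with 199 to 341 CPM and 101 to 166 CPM in the late libraries, against 201 to 779 CPM and 103 to 400 CPM in the early ones. With the GC offset MIR3648 did not pass (per-time adjusted p = 0.187), and both calls held in 5 of the 8 fits without a library. MTRNR2L2 and MTRNR2L8, which resemble mitochondrial ribosomal RNA, were called lower as well, on 2 libraries. MTRNR2L2 had 0.190, 0.324, 1.08 and 0.576 CPM in the late libraries, against 46.7 and 153 CPM in replicate 1 and 0.315 and 0.341 CPM in replicate 2 of the early ones.

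No member rose or fell among 81 cytosolic and 74 mitochondrial ribosomal proteins (medians 0.08 and 0.01), 18 p53 targets (0.05), 19 immediate early genes (-0.06), 18 glycolysis genes (-0.06), 23 cholesterol genes (-0.07), 19 ATF4 targets (0.18), 16 noradrenergic genes (-0.06) or 23 splicing factors (0.04). The same held for 28 recombination and Fanconi genes (0.02), 10 histone mRNA processing genes (0.01), 14 hypoxia genes (0.05), 13 BCL2 family genes (0.04), 8 interferon response genes (0.15), 207 small nucleolar and Cajal body RNAs (-0.02) and 6 abundant non-coding RNAs (-0.04). GATA3, a noradrenergic factor, had 29.3 and 22.6 CPM at 20 h and 27.6 and 23.9 CPM at 22 h, against 55.4 and 23.4 CPM at 16 h and 55.5 and 25.3 CPM at 18 h. Replicate 1 was high at 16 and 18 h, and replicate 2 was level over the 4 times. Of 34 neuronal genes 1 fell, INA, an intermediate filament protein, by 0.40 on the log2 scale (SE 0.0954, per-time adjusted p = 0.0339). Of 20 genes of the unfolded protein and heat shock response 1 rose. That was XBP1, a transcription factor of the unfolded protein response, which rose by 0.34 on the log2 scale (SE 0.085, per-time adjusted p = 0.0406). Of 7 mesenchymal markers 1 fell, COL1A1, at 4.70 to 8.10 CPM in the late and 7.42 to 13.2 CPM in the early libraries. Of 28 nuclear pore and lamina genes 2 rose, NUP35, a pore subunit, and TMPO, a protein of the nuclear lamina, which rose by 0.34 on the log2 scale (SE 0.0969, per-time adjusted p = 0.0231). The calls of XBP1 and NUP35 held in 3 of the 8 fits without a library and those of INA, COL1A1 and TMPO in 4, and NUP35 did not pass with the GC offset (per-time adjusted p = 0.058).

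Of the 3 steps between the times, edgeR called genes in the one within the early window alone. Between 16 and 18 h the per-time fit called 992 genes higher at 18 h (7.22%) and 937 lower (6.82%). Without single libraries the calls of this step numbered 0 (without 20 h replicate 1, 20 h replicate 2 or 16 h replicate 2), 4 (without 18 h replicate 1), 33 (without 16 h replicate 1), 3834 (without 18 h replicate 2), 4810 (without 22 h replicate 2) and 4825 (without 22 h replicate 1), and 0 with no replicate block. Between 18 and 20 h, and between 20 and 22 h, edgeR called 0 (0%). At an unadjusted p under 0.05, 788 genes (5.73%) were higher and 555 (4.04%) lower at 20 h than at 18 h, and 271 (1.97%) were higher and 249 (1.81%) lower at 22 h than at 20 h. DESeq2 called 4 and 46 in these 2 steps, and edgeR up to 74 and 264 without 22 h replicate 1. The first step moved with base composition. Across 9710 genes whose mean log2 CPM reached 3, the Spearman correlation of the 18 against 16 h log2 fold change with transcript GC content was -0.86 (genes are not independent and the points share libraries), and 0.67 and -0.70 in the next 2 steps. Below the lower quartile of GC the median change between 16 and 18 h was 0.33, and above the upper one -0.39. For late against early the same values were 0.08 and -0.05 (Spearman -0.39).

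**Figure D4:**
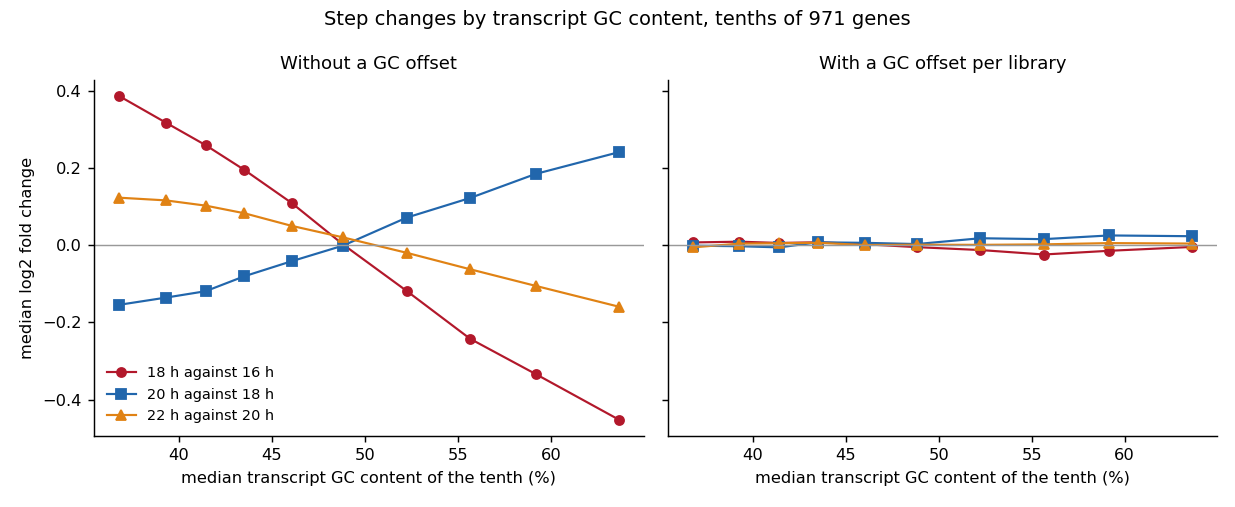
Median log2 fold change (y axis) of each step for groups of genes ordered by transcript GC content (x axis, percent), without (left) and with (right) an offset per library for GC content; each point is the median of 1 of 10 equal groups. Without the offset the 18 against 16 h step runs from 0.39 in the group lowest in GC to -0.45 in the highest, and with it from 0.01 to -0.00. The offset was fitted to these same genes and libraries, so the flat lines on the right follow from how it was made.

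With an offset per library for GC content, chosen after seeing the data, the 18 against 16 h step had 0 calls (0%) in either direction, whereas late against early kept most of its calls. The per-time fit then called 168 genes higher (1.22%) and 94 lower (0.684%), and 99 of the 107 and 38 of the 53 were among them. How much of the first step was base composition in the libraries and how much the cells was not tested. In that step 18 of 41 kinetochore genes and 12 of 28 recombination genes were called higher, lists whose median GC contents were 41.6% and 42.3%, against 48.2% for all tested genes. With the offset their median change was 0.12 and 0.12, against 0.32 and 0.33 without it, while that of the histones was 0.26, against 0.01 without it. In the first step 3 of 23 splicing factors (median GC 40.4%) and 4 of 28 nuclear pore and lamina genes (43.5%) were called higher. By the naming rule the leading genes of the first step were VGF (-1.26, SE 0.155, adjusted p = 0.0364), C12orf34 (-1.07, SE 0.145, adjusted p = 0.0364) and the microRNA gene MIR663A (-1.11, SE 0.141, adjusted p = 0.0364). With the offset their log2 fold changes were -0.63, -0.58 and -0.33, and none passed. In the second they were FAM83D (0.62, SE 0.102, adjusted p = 0.279), CCNF (0.55, SE 0.0965, adjusted p = 0.344) and FAM72D (0.70, SE 0.125, adjusted p = 0.344), and in the last CCNB1 (0.58, SE 0.0857, adjusted p = 0.189), HIST1H2BJ (-0.76, SE 0.117, adjusted p = 0.189) and HIST1H2AK (-0.60, SE 0.0969, adjusted p = 0.189). None of the last 6 passed.

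In the Tet plus arm the medians of the mitotic lists had the opposite sign over the same hours. Some lists outside cell division did too, such as deoxynucleotide synthesis (median 0.11 in Tet minus, -0.26 in Tet plus) and ribosome biogenesis (0.01 and -0.18). The median of origin licensing and E2F genes did not (-0.05 and -0.06). MYCN, the target of the hairpin, had 944 and 1031 CPM at 20 h and 1029 and 1229 CPM at 22 h, against 862 and 1003 CPM at 16 h and 962 and 1041 CPM at 18 h in Tet plus cells (TMM scale of those 8 libraries). The 1009 to 1353 CPM of the 8 Tet minus libraries, scaled among themselves, overlapped these values, and the difference in level between the arms was not tested here. In the Tet plus libraries the median late-against-early change was -0.33 for kinesins and spindle proteins, -0.15 for mitotic entry genes, -0.29 for kinetochore genes and 0.46 for histones, whereas the Tet minus medians were 0.47, 0.45, 0.21 and -0.26. CENPA had 9.72 and 9.77 CPM at 20 h and 10.5 and 10.5 CPM at 22 h, against 13.1 and 12.6 CPM at 16 h and 12.0 and 11.9 CPM at 18 h, in Tet plus cells. TOP2A had 386 and 394 CPM at 20 h and 294 and 311 CPM at 22 h, against 665 and 538 CPM at 16 h and 443 and 543 CPM at 18 h, in Tet plus cells. Both were thus lower in every late than in every early Tet plus library. They are among the genes with the smallest p for the arm difference below. Genes that rose in Tet minus cells did not all have a negative change in Tet plus. Log2 fold changes there were 0.13 for CCNF, 0.15 for HJURP and 0.04 for KIFC1, against -0.53 for CCNB1 and -0.41 for TPX2.

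**Figure D5:**
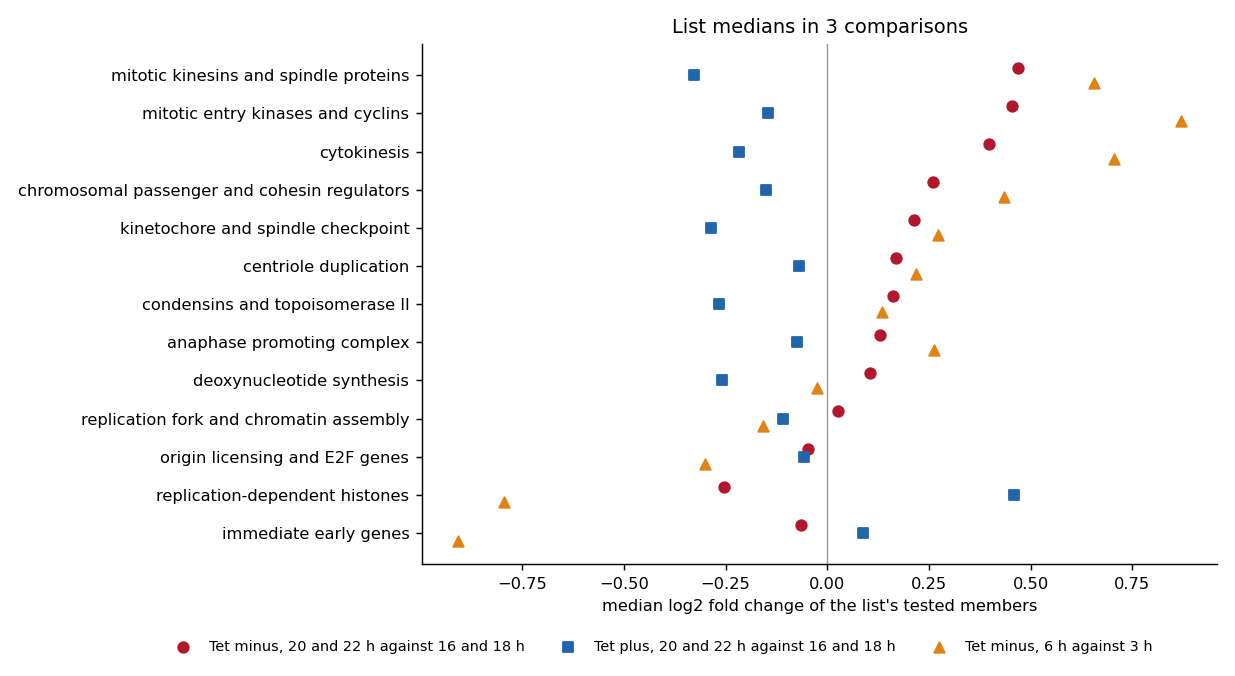
Median log2 fold change (x axis) of the tested members of 13 gene lists (y axis) in the Tet minus libraries at 20 and 22 h against 16 and 18 h (circles), the same windows of the Tet plus libraries (squares) and Tet minus 6 h against 3 h (triangles). With TMM scaling the 8 mitotic and centrosome lists have positive medians in both Tet minus comparisons and negative ones in Tet plus, and the histones the reverse.

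The difference of the 2 changes was tested as an interaction, each arm within its own lanes and with window means as in the 2-window fit. Unlike the per-time fit, it counts the difference between the 2 times of a window as spread. By this test edgeR called 0 of 13503 genes (0%). At an unadjusted p under 0.05, 871 genes (6.45%) had a higher and 978 (7.24%) a lower change in Tet minus than in Tet plus cells, and DESeq2 called 128. The Tet plus change alone had 0 calls (0%) by edgeR, with 1191 genes (8.82%) higher and 1167 (8.64%) lower at an unadjusted p under 0.05, and 349 called by DESeq2. In the same fit the Tet minus change had 16 genes called higher (0.118%) and 6 lower (0.0444%). The 6 genes with the smallest p for the difference were FAM72D (1.51, SE 0.235, adjusted p = 0.0509), CENPA (1.30, SE 0.209, adjusted p = 0.0509), TOP2A (1.32, SE 0.234, adjusted p = 0.0623), DLGAP5 (1.45, SE 0.264, adjusted p = 0.0623), RACGAP1 (0.97, SE 0.185, adjusted p = 0.0623) and PSRC1 (1.16, SE 0.224, adjusted p = 0.0623). None passed, although leaving out Tet minus 18 h replicate 1 gave 100 calls and Tet minus 20 h replicate 2 53. Of the 6, 5 belong to the mitotic lists, and FAM72D to none. Arm and sequencing lane cannot be told apart at these times, and the Tet plus libraries had 0.0543% to 0.376% ERCC counts and 10.9 to 19.8 M gene counts.

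In the first cycle after release, the change at 6 h against 3 h in Tet minus cells had the same sign in these lists. Its medians were 0.87 for mitotic entry, 0.65 for kinesins and spindle proteins, 0.71 for cytokinesis and -0.79 for histones, and edgeR called 163 of 13988 genes higher (1.17%) and 175 lower (1.25%) at 6 h. Without 3 h or 6 h replicate 1 these 338 calls became 10, without 18 h replicate 1 they became 675, and without 3 h or 6 h replicate 2 they became 18 and 22. They numbered 207 and 195 without 20 h or 22 h replicate 1, 198 and 203 without 18 h or 20 h replicate 2, and 325 to 360 without either 16 h library or 22 h replicate 2. AURKA had a 6 against 3 h log2 fold change of 1.62 and CCNB1 of 1.19. The difference between the second-cycle and the first-cycle change was called for 16 genes, 10 higher (0.0715%) and 6 lower (0.0429%). Of the 16, 0 belonged to the 8 mitotic lists, which says little, as these lists hold 172 of the 13443 genes of the 2-window fit. Over the 8 lists the median difference ran from -0.43 (mitotic entry) to 0.03 (condensins and topoisomerase II). It was 0.66 for histones and 0.00 for all genes. Without 3 h or 6 h replicate 1 this difference had 0 calls, without 3 h, 6 h, 18 h or 20 h replicate 2 it had 2, without 20 h or 22 h replicate 1 it had 3, and without 18 h replicate 1 it had 32. For AURKA the difference was -0.79 (SE 0.253, adjusted p = 0.352) and for CCNB1 -0.53 (SE 0.241, adjusted p = 0.593), and neither passed. The steps differ in length and in the time since the block. The second-cycle change was fitted here with window means, as in the 2-window fit and not as in the per-time fit.

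The 6 genes named for this difference had moved in the first cycle. FOSL2, an AP-1 subunit, differed by 1.89 (SE 0.259, adjusted p = 0.0178), with a second-cycle change of -0.42 and a 6 against 3 h change of -2.31. NAB2, a corepressor of EGR factors, differed by 1.96 (SE 0.187, adjusted p = 0.00161), with changes of 0.03 and -1.93. Both stood at their highest at 3 h, where NAB2 had 312 and 271 CPM (22-library scale), against 39.9 to 63.3 CPM over the 8 libraries of 16 to 22 h. The 3 h libraries carry other lane numbers than these 8. FAM212B differed by 1.70 (SE 0.2, adjusted p = 0.00853) and FAM84B by 1.36 (SE 0.183, adjusted p = 0.0178), with 6 against 3 h changes of -1.85 and -1.32. DNAJB1, a heat shock protein that works with HSP70, differed by -1.32 (SE 0.171, adjusted p = 0.0162), with changes of 0.37 and 1.69. On that scale it had 127 and 118 CPM at 20 h and 153 and 113 CPM at 22 h, against 96.8 and 98.7 CPM at 16 h and 105 and 95.2 CPM at 18 h. UNC5C, a netrin receptor, differed by -1.27 (SE 0.18, adjusted p = 0.0178), with changes of 0.06 and 1.33.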

How the data were processed

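RNA-seq was made from total RNA of IMR5/75 cells with ERCC spike-in transcripts, ribosomal RNA depletion and a directional library kit, per the labels' protocols. The deposited values are raw counts of reads per gene. TopHat2 2.0.5, HTSeq and hg19 are named in the submitters' processing notes, and the labels give no HTSeq version, strand setting or annotation. Without the strand setting, reads of overlapping genes on opposite strands cannot be assigned with certainty. Library and group were taken from the labels, and 0 columns lacked a sample.

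The 92 ERCC rows were kept out of library sizes and tests. Counts were scaled by TMM and tested with edgeR 4.0.16 (quasi-likelihood test, filterByExpr, Benjamini-Hochberg threshold 0.05, R 4.3.3), with DESeq2 1.42.0 as alternative. Mean log2 CPM values use a prior count of 2, and edgeR's log2 fold changes use its default. The SE given with an edgeR log2 fold change is its absolute value divided by the square root of the test's F statistic. The 2-window fit has 5 residual degrees of freedom and the per-time fit 3. An offset per library, a smooth curve of log2 counts on transcript GC content (span 0.5), was tried as well. The scripts were checked on simulated counts.

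Replicate number and lane coincide in these 8 libraries. After removing group means, libraries with the same number deviated together (r from 0.298 to 0.730 over 6 pairs, across 9844 genes), so the number served as block in the analyses as planned. Libraries of 1 time differed by more than counting error (chi-square per gene from 16.1 to 37.0). P-values of the per-time fit are set against the spread left between these replicates once their constant difference is removed. Fits with window means, among them those of the arm and cycle differences, also count the difference between the times of a window as spread.

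The members and the 39 gene lists were chosen with earlier results of these data known. Genes were to be named as MYCN, the 15 highest and 15 lowest among those past the threshold, the 4 members with the lowest adjusted p in each list, the 6 smallest p-values of the arm and of the cycle difference and the 3 smallest of each step, all but the list members at a mean log2 CPM of 3 or more. As the 2-window fit called none, the leading genes of the per-time fit, and members given as contrasts that did not pass, were chosen after their values were seen. Promoter windows are from the RefSeq table (GRCh38.p14) and were matched by symbol, and no coordinate of it was joined to the counts, whose build is hg19. A few genes of the fixed lists are not reported here.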

Additional observations from a re-analysis of the deposited data

Results flagged for a closer look

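Single libraries stood apart from the other 3 of their window in 5 of 168 groups of 4 values, by the gap to the nearest value over the whole range (Dixon's ratio on the log2 scale, 95% critical value); chance alone gives about 1 in 20. In the late window these were 2 genes, both with 22 h replicate 2 high. SASS6, a centriole gene, had 50.1 CPM there, against 39.9 to 41.3 CPM in the other late libraries (ratio 0.85). FOXM1, the G2 transcription factor, had 49.3 CPM there, against 42.1 to 43.0 CPM (ratio 0.865). In the early window BUB1 had 120 CPM at 18 h replicate 1, against 101 to 102 CPM in the other early libraries (ratio 0.945). DLGAP5 had 82.0 CPM at 16 h replicate 1, against 103 to 107 CPM (ratio 0.853). Small nucleolar and Cajal body RNAs took 0.289% of gene counts at 16 h replicate 2, against 0.615% to 0.713% (ratio 0.836).

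The changes of 6 named genes differed between the second and the first cycle by the interaction test (edgeR's quasi-likelihood test, Benjamini-Hochberg adjusted). The second-cycle change exceeded the first-cycle one by 1.96 on the log2 scale for NAB2, 1.89 for FOSL2, 1.7 for FAM212B and 1.36 for FAM84B. The difference was -1.32 for DNAJB1 and -1.27 for UNC5C.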

How the results depend on the processing

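Late against early, the 2-window fit with the replicate block called 0 genes higher and 0 lower. RLE size factors and the fit with no replicate block gave 0 and 0, no filter on low counts 2 and 0, DESeq2 51 and 33, a GC offset 75 and 33, ERCC scaling 0 and 2, and all 22 Tet minus libraries 112 and 81. A mean per time with the replicate block gave 107 and 54. Narrower windows gave 1196 and 1016 (22 h against 16 h), 1165 and 1084 (without the 18 h libraries) and 0 and 1 (without the 16 h libraries). Without single libraries the counts were 0 to 0 higher and 0 to 1 lower. The per-time fit gave 162 and 145 with no filter, 163 and 143 with DESeq2, 11 and 0 with no replicate block and 168 and 94 with the GC offset, and 14 to 362 and 1 to 431 without single libraries. With RLE it gave 102 and 72.

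The step of 18 against 16 h (1929 calls) fell to 0 calls with no replicate block and to 0 with the GC offset, and ranged from 0 to 4825 without single libraries. The step of 20 against 18 h (0) had 3 with no filter, 4 with DESeq2 and 0 to 74 without single libraries. The step of 22 against 20 h (0) had 1, 46 and 0 to 264 in the same settings. The arm difference (0) had 484 with no filter, 128 with DESeq2, 101 with the GC offset and 0 to 100 without single libraries. The Tet plus change (0) had 808, 349, 442 and 0 to 310. The cycle difference (16) had 44, 100, 266 and 0 to 32, and 3 with no replicate block. The 6 against 3 h change (338) had 575 with DESeq2, 1005 with the GC offset, 110 with no replicate block and 10 to 675 without single libraries. The cause of these shifts was not tested.

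Of 81 genes followed through the settings, 79 kept their sign under ERCC scaling and 79 without the 16 h libraries, and all 81 in the others run on the 2-window comparison. ERCC scaling set the median of all genes at -0.20, against 0.00 with TMM and -0.00 with RLE. Settings of the per-time fit, the GC offset and the fits without the libraries of 1 time were chosen after seeing the data. With 2 libraries per time, the precision is set by the number of libraries rather than by their depth.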

Other observations

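AURKB and CDCA8 had the same counts in both 22 h Tet minus libraries, 2431 in replicate 1 and 2299 in replicate 2, and different counts in the other 6 libraries of the comparison. Among 4561 tested genes with at least 1000 counts in both of these libraries, 5 pairs of genes had equal counts in both.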
